A study of Homo sapiens with 4 samples.

Results

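The HOX genes were compared between A549 cells carrying a control construct and A549 cells carrying a CBX7 expression construct. A549 is a human lung adenocarcinoma cell line. Both lines are stable lines made by lentiviral infection, so the control cells (group Control, genotype labelled WT) also went through infection with a construct, and the other group (OE_CBX7) is labelled with overexpression of CBX7. Each group gave 2 libraries of total RNA, 4 in all. The labels do not say whether either line is a clone or a pool, nor whether each library had a culture of its own. The p-values therefore cover the spread between these libraries alone, and that spread may be technical. The members are all rows of the gene count table whose symbol is HOX followed by A, B, C or D and a number. There were 39 of them among 28278 rows: 11 in cluster HOXA, 10 in HOXB, 9 in HOXC and 9 in HOXD.

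HOX genes encode homeodomain transcription factors that give cells their position along the body axis. They lie in clusters, and the number in the symbol gives the paralogue group, that is, the position in the cluster: low numbers are expressed towards the head and high numbers towards the tail and the ends of the limbs. HOX clusters are the classical targets of Polycomb silencing, in which PRC2 methylates histone H3 at lysine 27 and chromobox proteins such as CBX7 bind that mark as part of PRC1, while Trithorax complexes keep active HOX genes on. Adult cells often keep a HOX pattern that reflects where their tissue lay in the embryo.

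Library totals ran from 69877585 to 90765502 estimated counts. Levels are given as CPM, counts scaled to the library total after TMM normalization, and 3 counts corresponded to 0.0320 to 0.0440 CPM. CBX7 itself had 689 and 596 counts in Control and 1783 and 1550 in OE_CBX7 (log2 fold change 1.11, SE 0.156, edgeR adjusted p = 0.000141). Transcripts of the endogenous gene and of the introduced one are summed in this row. The 14 epithelial and A549 genes (3 higher and 1 lower of 14 tested) summed to 32190 and 33810 CPM in Control and 37340 and 40100 in OE_CBX7. The 14 lung lineage genes (3 higher and 1 lower of 8 tested) summed to 172 to 190 CPM, with SCGB1A1 and AQP5 at 0 counts. The sum hides large changes of single genes. FOXA1 was higher (log2 fold change 1.21, edgeR adjusted p = 6.81e-05). LAMP3 was the lower gene, with log2 fold changes of -8.11 to -7.51 when each library was left out in turn. Of these calls NKX2-1 was lost without each library in turn (edgeR adjusted p = 0.0556 to 0.215) and with DESeq2, limma-voom and the replicate block (0.057 to 0.0661). ABCA3 was lost without Control library 1 (0.204), OE_CBX7 library 1 (0.146) or OE_CBX7 library 2 (0.0888). In the epithelial list the lower gene, KRT7, was lost without each library in turn (0.0546 to 0.173) and with library totals (0.0812). CDKN2A and CDKN2B, which A549 cells are known to lack, had 0 to 5 counts, and MTAP, the third gene of that list, 439 to 779. Of the marker lists for other cell types, the 10 fibroblast genes (0 higher and 1 lower of 6 tested, THY1 at 0) summed to 7.65 to 9.28 CPM in the 4 libraries. The lower fibroblast gene, FAP, had a log2 fold change of -6.19 (edgeR adjusted p = 0.000398). The 10 endothelial genes (1 higher of 4 tested, TIE1 at 0) summed to 1.16 to 1.89 CPM in Control and 3.54 to 3.95 in OE_CBX7. The 10 leukocyte genes (1 higher and 2 lower of 5 tested) summed to 167 and 173 CPM in Control and 28.4 and 27.7 in OE_CBX7, with CD3E at 0. The higher leukocyte gene, CD14, lost its call without each library in turn (0.0544 to 0.213), so that the count of higher genes was then 0, and the lower genes CD68 and ITGAM were called in all 4 of these fits. The 10 embryonic kidney genes (0 higher and 2 lower of 9 tested, none at 0) summed to 108 and 102 CPM in Control and 56.9 and 61.1 in OE_CBX7. The part of these lists in the HOX values was not tested.

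A549 cells expressed 21 of the 39 HOX genes, taking as expressed a gene with 1 CPM or more in both libraries of at least 1 group. This is 53.8% of the HOX genes, beside 47.4% of all rows of the table. HOXB was the most active cluster: 7 of its 10 genes were expressed (HOXB3, HOXB5, HOXB6, HOXB7, HOXB8, HOXB9 and HOXB13), and it held 62.7% of the summed HOX CPM in Control. HOXA had 7 of 11 (among them HOXA2, HOXA3, HOXA4, HOXA5, HOXA10 and HOXA13) and HOXC 6 of 9 (HOXC4, HOXC6, HOXC8, HOXC9, HOXC10 and HOXC13). In HOXD only HOXD8 was expressed, and the cluster held 2.73% of the summed HOX CPM. At a cut of 0.5 CPM 24 genes would count as expressed and at 2 CPM 17. HOXA4, just inside the cut, had 0.743 and 0.469 CPM in Control and 1.24 and 1.42 in OE_CBX7. It thus met the cut in OE_CBX7 alone, as did HOXC6 and HOXC10. HOXC6 had 0.987 and 0.791 CPM in Control and 1.76 and 2.98 in OE_CBX7. HOXC10 had 0.987 and 2.77 CPM in Control and 2.64 and 3.63 in OE_CBX7. HOXB2, just outside, had 0.638 and 0.953 CPM in Control and 0.833 and 1.21 in OE_CBX7.

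**Figure D1:**
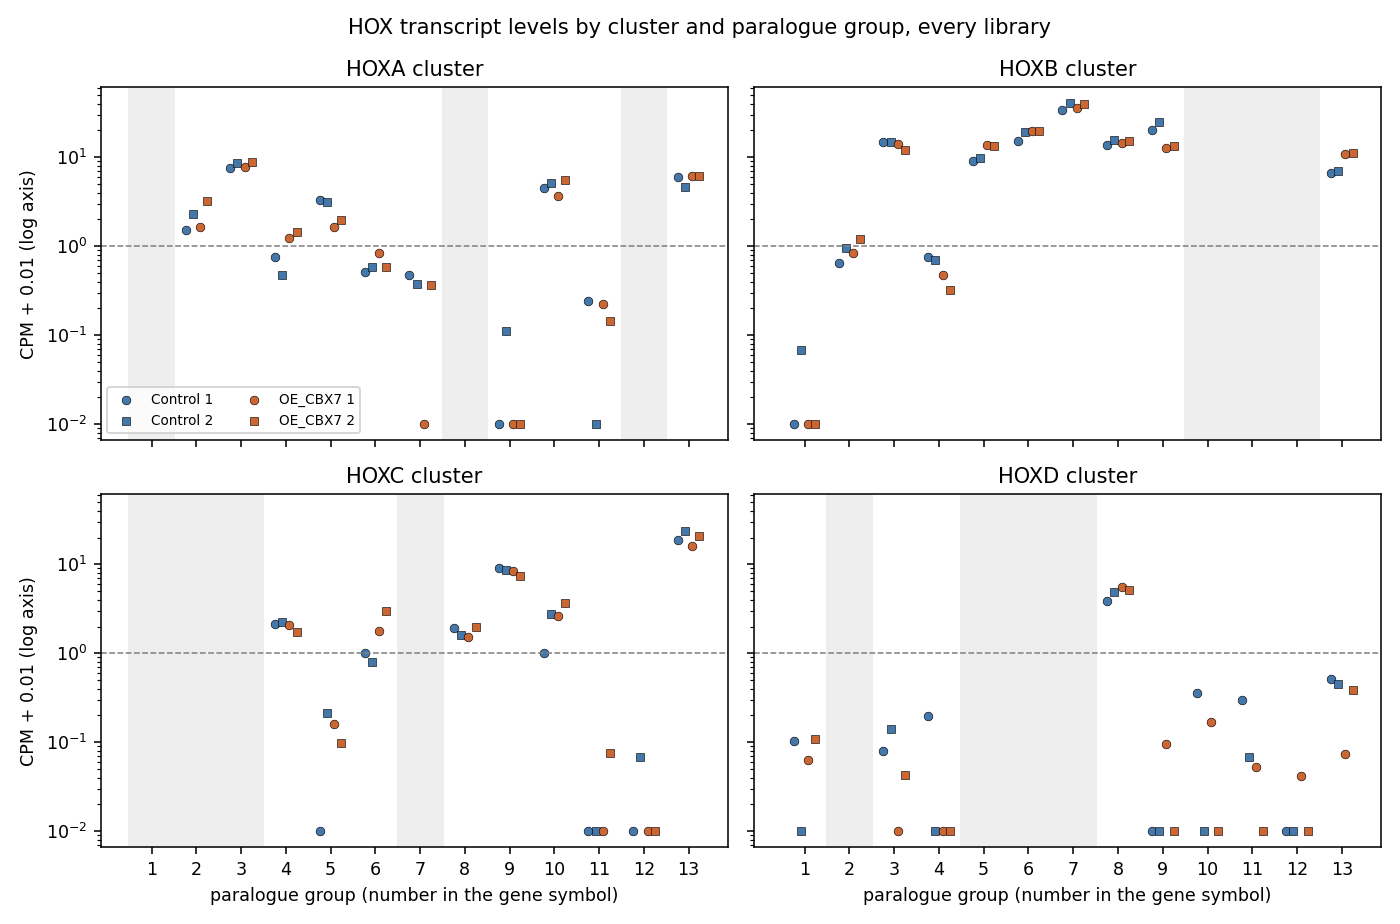
CPM of 38 of the 39 HOX genes in every library, by cluster and paralogue group, on a log axis after adding 0.01; grey bands mark paralogue groups with no gene plotted in that cluster and the dashed line marks 1 CPM. HOXB3 and HOXB5 to HOXB9 stand above 9 CPM in every library, and HOXD8 is the single HOXD gene above the line.

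Levels of different genes were compared per kilobase of exon (GENCODE 29 basic transcripts), averaged over the 4 libraries. HOXB7 was highest on this scale, at 27.4 CPM per kilobase with a range of 25.0 to 29.4. HOXB6 followed at 9.42 (7.82 to 10.1), HOXC13 at 8.14 (6.66 to 9.70), HOXB8 at 8.05 (7.46 to 8.55) and HOXB9 at 6.94 (4.97 to 9.66), and the ranges of these 4 genes overlap. HOXB5 stood at 5.60 CPM per kilobase and HOXC9, a thoracic-level gene, at 5.40. The pattern was not a simple gradient along the clusters. Among paralogue groups 11 and 12 no gene was expressed, but of the 4 genes of group 13, the most posterior, HOXA13, HOXB13 and HOXC13 were expressed.

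Neighbouring genes of 1 cluster could stand far apart. HOXD8 had 333, 331, 518 and 464 counts in Control 1, Control 2, OE_CBX7 1 and OE_CBX7 2, while HOXD10, its neighbour but 1, had 30, 0, 15 and 0. HOXA13 had 519, 314, 573 and 553 counts, and HOXA11, the next HOXA gene, had 20, 0, 20 and 12. The 250 bases before the starts of these 4 genes are shown to set an expressed gene beside a nearly silent one of the same cluster. They come from RefSeq (GRCh38.p14), run 5′ to 3′ on the gene's strand, and carry CG pairs in capitals. HOXD8 lies on the plus strand, with its window at chr2:176129455-176129704, and HOXD10 on the plus strand at chr2:176116528-176116777. HOXA13 lies on the minus strand at chr7:27200092-27200341 and HOXA11 on the minus strand at chr7:27185233-27185482.
HOXD8: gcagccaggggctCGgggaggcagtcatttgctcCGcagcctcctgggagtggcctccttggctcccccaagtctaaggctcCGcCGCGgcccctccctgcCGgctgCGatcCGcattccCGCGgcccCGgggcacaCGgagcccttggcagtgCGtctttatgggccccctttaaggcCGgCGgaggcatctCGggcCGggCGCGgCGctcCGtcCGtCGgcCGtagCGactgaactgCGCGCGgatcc
HOXD10: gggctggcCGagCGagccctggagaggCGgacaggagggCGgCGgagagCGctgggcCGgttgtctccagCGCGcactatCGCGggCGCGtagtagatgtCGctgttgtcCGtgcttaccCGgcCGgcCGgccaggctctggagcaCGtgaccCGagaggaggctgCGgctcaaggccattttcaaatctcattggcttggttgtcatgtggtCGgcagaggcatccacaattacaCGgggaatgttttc
HOXA13: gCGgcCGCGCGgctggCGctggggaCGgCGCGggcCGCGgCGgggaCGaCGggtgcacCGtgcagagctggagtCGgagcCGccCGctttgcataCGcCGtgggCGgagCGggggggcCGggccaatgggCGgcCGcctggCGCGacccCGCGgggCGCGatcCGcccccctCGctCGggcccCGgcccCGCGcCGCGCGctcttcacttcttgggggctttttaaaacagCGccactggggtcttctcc
HOXA11: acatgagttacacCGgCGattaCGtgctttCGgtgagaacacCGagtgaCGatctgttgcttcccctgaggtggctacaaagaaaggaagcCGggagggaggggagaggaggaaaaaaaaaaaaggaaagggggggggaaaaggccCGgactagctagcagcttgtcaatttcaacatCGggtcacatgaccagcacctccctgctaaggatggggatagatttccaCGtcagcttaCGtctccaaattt
HOXD8 held 28 CG pairs and HOXD10 held 23. HOXA13 held 40 and HOXA11 held 11. RefSeq windows were matched by symbol for 20 HOX genes, 7 expressed and 13 not, with 27 windows because HOXA3 and HOXA10 have several starts. None of the expressed HOXB genes had a matched window, and neither did HOXC6, so the comparison leaves out the most active cluster. A window with over 50% G and C and a ratio of observed to expected CG above 0.6 was counted as CpG-rich. This held for 8 of 14 windows of expressed genes and for 10 of 13 windows of the others, beside 44.8% of all 35116 promoter windows of the same length. HOXA3 alone gave 7 of the 14 windows of expressed genes and 5 of those that were not CpG-rich. By gene, 6 of 7 expressed genes and 10 of 13 others had a CpG-rich window. The median number of CG pairs was 16.5 over windows of expressed HOX genes and 21 over those of the others. That order is opposite to the one in both gene pairs shown above. HOXC4 and HOXC5 share 1 start and so 1 window.

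Most of the expressed HOX genes were not called different in OE_CBX7. Of the 39 HOX genes 29 passed the low-count filter and were tested, 4 were called at an edgeR adjusted p under 0.05, and 25 were not. HOXB5, HOXB13 and HOXC6 rose and HOXB9 fell. In these bulk libraries fewer cells that express a gene and less RNA per cell cannot be told apart. The called share, 13.8% of tested HOX genes, stands beside 24.4% of all 17271 tested genes, 10.5% higher and 13.9% lower. HOXC6 alone was called with a change of 2-fold or more, where 7.47% of all tested genes were. At an unadjusted p under 0.05 there were 7, HOXA4 and HOXA5 among them. The libraries of the groups did not overlap in 17 of the 29 genes (58.6%), 8 higher and 9 lower, against 62.8% of all tested genes (30.8% higher and 31.9% lower). The median log2 fold change was 0.022 over the tested HOX genes and -0.000151 over all tested genes, and its median size was 0.362 and 0.332. Some of the 29 genes passed the filter with few counts, and the 10 that did not pass entered none of these counts.

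**Figure D2:**
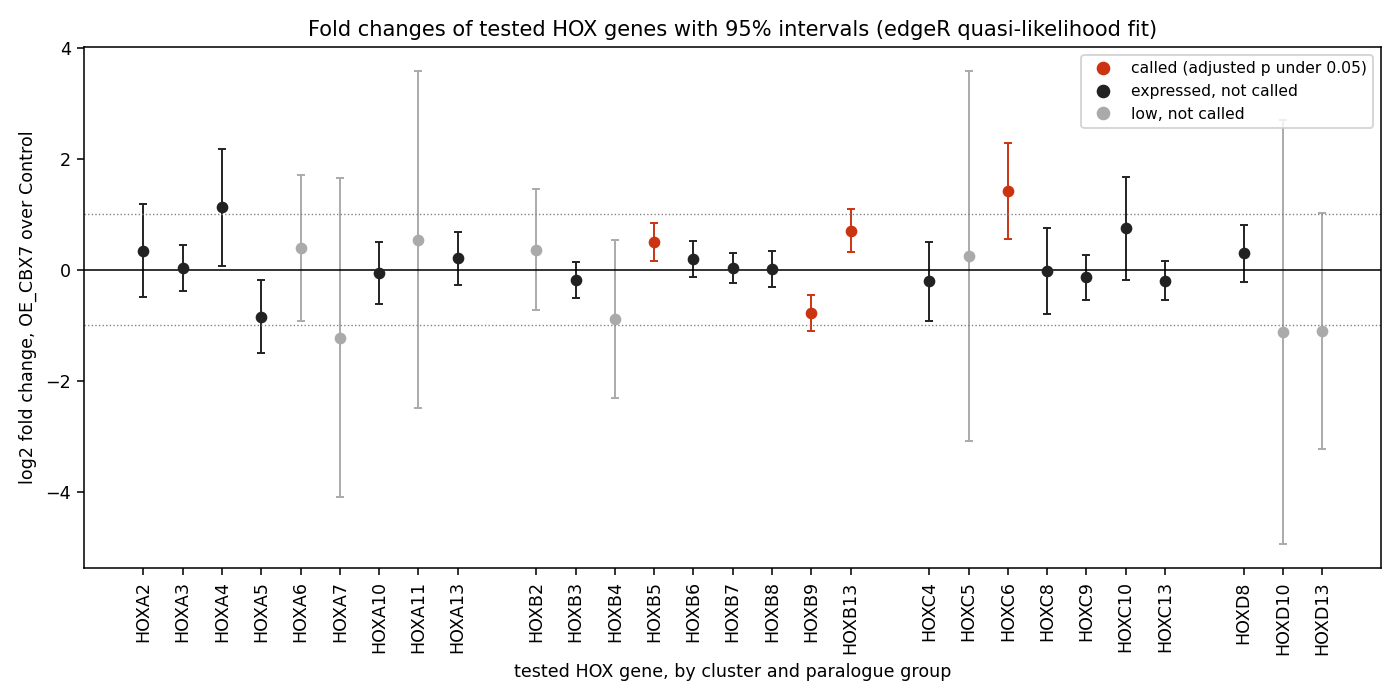
Log2 fold change of 28 of the 29 tested HOX genes (OE_CBX7 over Control) with 95% intervals from the edgeR fit, ordered by cluster and paralogue group; dotted lines mark a 2-fold change. The 4 called genes are HOXB5, HOXB9, HOXB13 and HOXC6, and the intervals are wide for genes of low level.

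Summed over all 39 genes, HOX transcripts came to 187 and 210 CPM in Control and to 190 and 203 in OE_CBX7. The means were 198 ± 16.0 and 196 ± 9.14 CPM (SD, n = 2), and the groups overlapped. By cluster, HOXA summed to 31.8 ± 1.03 CPM in Control and 30.3 ± 2.94 in OE_CBX7. HOXB summed to 124 ± 12.6 and 124 ± 2.36 CPM, HOXC to 36.7 ± 4.26 and 35.6 ± 4.07 CPM, and HOXD to 5.42 ± 0.0835 and 5.81 ± 0.224 CPM. The ratio of OE_CBX7 to Control lay between 0.951 in HOXA and 1.07 in HOXD. With 2 libraries a group an exact permutation test cannot go below a p of 0.333, so the sums were not tested.

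**Figure D3:**
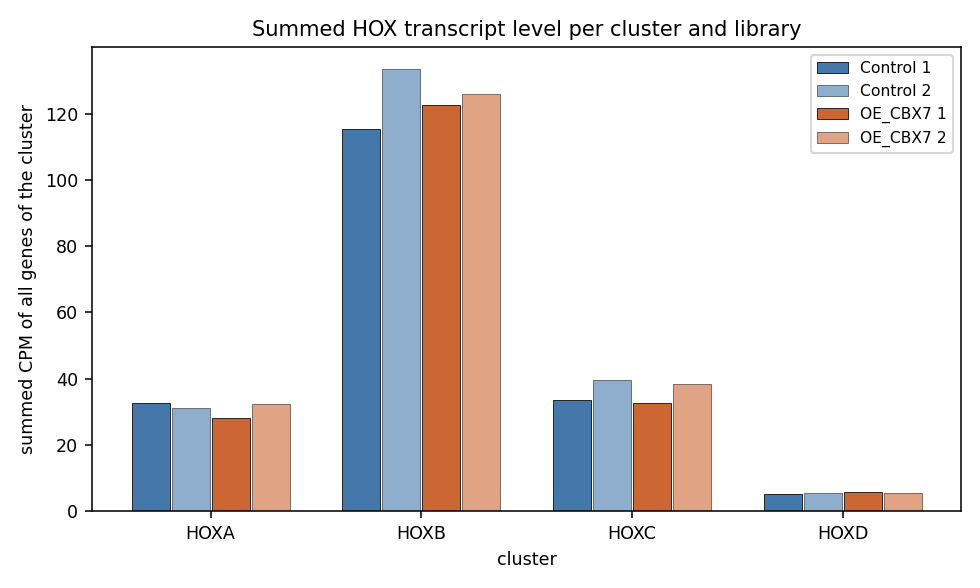
Summed CPM of all HOX genes of a cluster, 1 bar per library. HOXB carries 115 to 133 CPM and HOXD 5.36 to 5.97 CPM, and in HOXA, HOXB and HOXC the bars of the groups overlap in height.

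By position, the anterior genes (paralogue groups 1 to 4) gave 0 calls among 8 tested members, with 2 at an unadjusted p under 0.05. DESeq2 and limma-voom also called 0. Their sum was 36.2 and 36.0 CPM in Control and 33.1 and 33.2 in OE_CBX7, groups that did not overlap, a ratio of 0.917. Among the central genes (groups 5 to 9) 2 of 13 tested members rose and 1 fell, and among the posterior genes (groups 10 to 13) 1 of 8 rose and 0 fell. The posterior genes summed to 40.8 ± 3.87 and 43.7 ± 5.38 CPM (n = 2). Median log2 fold changes were -0.077, 0.022 and 0.070 in this order, and no test was made of these medians.

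The changes in HOXB ran in both directions among neighbours. HOXB9 (chromosome 17, 48621156 to 48626358, GRCh38) is a factor studied for its part in tumour invasion. It had 1751 and 1702 counts in Control and 1201 and 1219 in OE_CBX7, or 20.3, 24.9, 12.8 and 13.5 CPM. Both OE_CBX7 libraries lay well below both controls. HOXB9 fell 1.72-fold (log2 fold change -0.78, SE 0.150, edgeR adjusted p = 0.0018). HOXB8, the next gene, had 13.6 and 15.6 CPM in Control and 14.5 and 15.0 in OE_CBX7, groups that overlapped (log2 fold change 0.017, 95% interval -0.31 to 0.34). Within each library, which takes scaling between libraries out, the count of HOXB9 over that of HOXB8 was 1.49 and 1.60 in Control and 0.884 and 0.899 in OE_CBX7. Both OE_CBX7 ratios lay below both Control ratios. They reuse the counts behind the HOXB9 call and are not a further test of it.

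HOXB13, which lies apart from the rest of the cluster (chromosome 17, 48724763 to 48728750) and is a lineage factor of prostate and hindgut, had 565 and 472 counts in Control and 1015 and 996 in OE_CBX7. In CPM these were 6.56, 6.92, 10.8 and 11.0, with both OE_CBX7 libraries above both controls. HOXB13 rose 1.62-fold (log2 fold change 0.70, SE 0.180, edgeR adjusted p = 0.0117). Its call was lost without OE_CBX7 library 1 (adjusted p = 0.0661) or library 2 (0.0769), with log2 fold changes of 0.72 and 0.70. HOXB5 (chromosome 17, 48591257 to 48593779), a factor of foregut, lung and enteric nerve development, had 790 and 666 counts in Control and 1270 and 1194 in OE_CBX7. Its CPM of 9.17 and 9.76 in Control and 13.6 and 13.2 in OE_CBX7 did not overlap. HOXB5 rose 1.42-fold (log2 fold change 0.50, SE 0.160, edgeR adjusted p = 0.0356), a call lost without Control library 1 (0.0902), OE_CBX7 library 1 (0.208) or OE_CBX7 library 2 (0.156).

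The other expressed HOXB genes were not called. HOXB7, the most abundant HOX gene of these cells and a factor linked to proliferation in several tumours, had 34.3 and 40.3 CPM in Control and 35.8 and 39.9 in OE_CBX7. Its log2 fold change was 0.022 with a 95% interval of -0.25 to 0.29, the narrowest error of the HOX genes (SE 0.126). HOXB6 had 15.3 and 19.2 CPM in Control and 19.8 and 19.5 in OE_CBX7 (interval -0.13 to 0.51). HOXB3, an anterior gene with several promoters, had 14.8 and 14.9 CPM in Control and 13.9 and 12.2 in OE_CBX7 (interval -0.51 to 0.14). In both genes the groups did not overlap. HOXB3 exons overlap those of HOXB4 and, on the other strand, of HOXB-AS1 and HOXB-AS3.

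**Figure D4:**
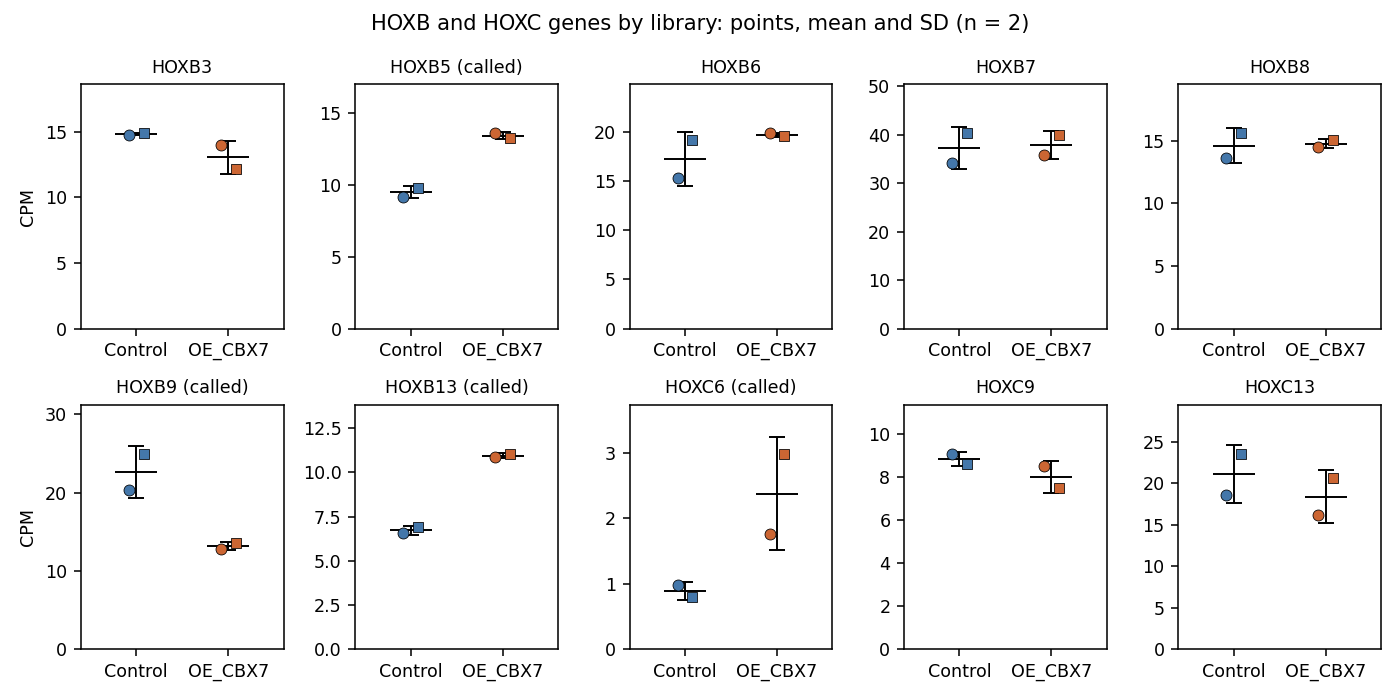
CPM of 10 HOXB and HOXC genes by library (circles for replicate 1, squares for replicate 2), with mean and SD bars, each panel on its own axis from 0. HOXB9 is lower, and HOXB5, HOXB13 and HOXC6 are higher, in both OE_CBX7 libraries than in both Control libraries, and HOXB7 and HOXB8 overlap.

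In HOXC, HOXC6 (chromosome 12, 54016888 to 54030823), a thoracic-level gene often raised in carcinomas, had 85 and 54 counts in Control and 165 and 269 in OE_CBX7. These are 0.987, 0.791, 1.76 and 2.98 CPM, and the OE_CBX7 libraries differed from each other by more than the controls did. HOXC6 rose 2.66-fold (log2 fold change 1.41, SE 0.403, edgeR adjusted p = 0.0205), but at low abundance. Its call was lost without Control library 1 (0.0516), Control library 2 (0.0978) or OE_CBX7 library 2 (0.273), the last with a log2 fold change of 0.99. RefSeq gives HOXC4, HOXC5 and HOXC6 the same start, and in GENCODE 29 484 exon bases are shared by HOXC6 and HOXC4, so the split of reads between them is uncertain. HOXC4 had 185 and 152 counts in Control and 193 and 155 in OE_CBX7.

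HOXC13, a factor of hair and nail, was the most abundant HOXC gene. It had 18.6 and 23.5 CPM in Control and 16.1 and 20.6 in OE_CBX7, overlapping groups with an interval for the log2 fold change of -0.55 to 0.15. HOXC9 had 9.05 and 8.57 CPM in Control and 8.51 and 7.47 in OE_CBX7 (interval -0.54 to 0.26). HOXC10 had 85 counts in Control 1 against 189 in Control 2, and 247 and 327 in OE_CBX7. It was not called (edgeR adjusted p = 0.241), but was without Control library 2 (log2 fold change 1.67, adjusted p = 0.0228). HOXC8 stood between 1.52 and 1.95 CPM in all 4 libraries.

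In HOXA the test made 0 calls among 10 tested members, with 3 at an unadjusted p under 0.05; DESeq2 and limma-voom also called 0. HOXA5, a factor of lung morphogenesis and surfactant-producing epithelium, had 287 and 216 counts in Control and 153 and 178 in OE_CBX7. In CPM these were 3.33, 3.17, 1.63 and 1.97, groups that did not overlap, with a log2 fold change of -0.85 (95% interval -1.51 to -0.19, edgeR adjusted p = 0.0599). HOXA4 had 64 and 32 counts in Control and 116 and 128 in OE_CBX7 (log2 fold change 1.13, interval 0.071 to 2.18, adjusted p = 0.115). The groups of HOXA4 did not overlap either, but it did not pass the test over all genes.

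HOXA3, a factor of the pharyngeal arches, had 7.63 and 8.60 CPM in Control and 7.81 and 8.76 in OE_CBX7 (log2 fold change 0.030, interval -0.38 to 0.44). HOXA13, a limb and hindgut factor, had 6.02 and 4.60 CPM in Control and 6.12 and 6.13 in OE_CBX7 (interval -0.28 to 0.69); Control library 1 lay just below both OE_CBX7 libraries. HOXA10 had 387 and 353 counts in Control and 346 and 501 in OE_CBX7, and HOXA2 131 and 155 against 153 and 286. Both pairs of groups overlapped in CPM. In all, 17 expressed HOX genes were not called. For 12 of them, among them HOXA3, HOXA10, HOXA13, HOXB7, HOXC13 and HOXD8, the 95% interval lay inside a 2-fold change in either direction; for the other 5, among them HOXA2, HOXA4, HOXA5 and HOXC10, a 2-fold change lay within it.

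In HOXD 3 genes were tested and 0 were called, with 0 at an unadjusted p under 0.05 and 0 by DESeq2 and limma-voom. HOXD8 had 3.87 and 4.85 CPM in Control and 5.53 and 5.14 in OE_CBX7, groups that did not overlap (log2 fold change 0.29, interval -0.22 to 0.81, edgeR adjusted p = 0.422). HOXD13, the gene at the limb end of the cluster, had 44 and 30 counts in Control and 6 and 34 in OE_CBX7. HOXD1, HOXD3, HOXD4, HOXD9, HOXD11 and HOXD12 had at most 25 counts in any library and were not tested.

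The 18 genes that were not expressed had means of 0.00801 to 0.908 CPM. Of them 8 were tested and 0 were called (0 also at an unadjusted p under 0.05, and 0 by DESeq2 and limma-voom). Their SEs of 0.508 to 1.75 and the absence of any 95% interval inside a 2-fold change mean that changes of 2-fold were not detectable in these libraries. HOXB2 had 55, 65, 78 and 109 counts in Control 1, Control 2, OE_CBX7 1 and OE_CBX7 2. HOXB4 had 65, 47, 44 and 28, and HOXA6 43, 39, 77 and 52. HOXA7 was at 40, 25, 0 and 32: the 0 of OE_CBX7 1 stands beside 32 counts in the other library of the group, and estimated counts can give a 0 where reads exist. Without OE_CBX7 library 2 it was called lower (edgeR adjusted p = 0.0147), a call that rests on that 0. HOXA9, HOXB1 and HOXC12 had counts in Control 2 alone (7, 4 and 4), and HOXC11 in OE_CBX7 2 alone (6). These single-library counts give no direction. The 3 HOX genes with 0 counts in both Control libraries, HOXC11, HOXD9 and HOXD12, had at most 8 counts in OE_CBX7.

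The clusters also hold non-coding genes, many of them antisense to HOX genes. Of 27 listed rows (readthrough and microRNA genes included) 23 were in the table, 10 were tested (median log2 fold change 0.021) and 1 was called, HOXA10-AS, which rose from 0 and 0 to 12 and 28 counts (edgeR adjusted p = 0.0310). Set against a floor of 3 counts in each Control library it was at least 5.57-fold higher. A 0 in estimated counts can hide reads, in which case the bound does not hold. The call did not hold when any 1 of the 4 libraries was left out. Without Control library 1, Control library 2 or OE_CBX7 library 1 the log2 fold change was 7.21, 7.31 and 7.67. The call was also lost with the replicate number as a block (edgeR adjusted p = 0.0787). HOXA10-AS overlaps 608 exon bases of HOXA10, and the strandedness of the libraries is not given in the sources used here. Where exons of 13 HOX genes overlap those of an antisense gene, reads in the shared bases can therefore not be told apart. The shared bases ran from 10 of 1557 exon bases in HOXC9 to 1507 of 2018 in HOXA7.

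HOXB-AS3, which runs antisense across the middle of HOXB, had 424 and 482 counts in Control and 696 and 705 in OE_CBX7 (log2 fold change 0.35, edgeR adjusted p = 0.290). HOTAIRM1, a HOXA RNA known from myeloid cells, had 330 and 338 counts in Control and 254 and 243 in OE_CBX7 (log2 fold change -0.70, adjusted p = 0.0784). HAGLR, which overlaps HOXD3 exons on the other strand, had 89 and 143 counts in Control and 219 and 321 in OE_CBX7 (log2 fold change 0.92, adjusted p = 0.106) and was called without Control library 2 (0.0402). HOXC13-AS and HOXA-AS2 had 110 to 183 and 44 to 88 counts. HOTAIR, a HOXC RNA known for its link to Polycomb, had 7 counts in OE_CBX7 1 and 0 in the other 3 libraries. HOTTIP, at the HOXA13 end, had 7 to 30 counts. The rows for the precursors of the microRNAs of the clusters (MIR10A, MIR10B, MIR196A1, MIR196A2, MIR196B and MIR615) had 0 to 9 counts.

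Of 18 tested genes that flank the clusters 6 were called, 3 higher and 3 lower, where 10.5% of all tested genes were called higher and 13.9% lower. Their median log2 fold change was 0.060. Without Control library 1, OE_CBX7 library 1 or OE_CBX7 library 2 the count was 3, 2 higher and 1 lower, and with library totals in place of TMM it was 5 higher and 1 lower. Next to HOXB13, TTLL6, a tubulin polyglutamylase, rose from 6.63 ± 0.886 to 14.6 ± 1.05 CPM (n = 2, log2 fold change 1.14, edgeR adjusted p = 0.000351). CALCOCO2, an autophagy receptor on the same side of HOXB, had 196 ± 0.540 CPM in Control and 120 ± 2.24 in OE_CBX7 and fell (log2 fold change -0.71, adjusted p = 9.5e-05). CBX5, which encodes heterochromatin protein HP1 alpha and lies beyond HOXC, rose (log2 fold change 0.66, adjusted p = 0.000737). SNX11, near the HOXB1 end, fell (log2 fold change -0.36, adjusted p = 0.0359), a call lost without Control library 1 (0.132), OE_CBX7 library 1 (0.105) or OE_CBX7 library 2 (0.323), and with library totals in place of TMM (0.0804). The other called genes were LNPK (adjusted p = 0.0492), lost without each library in turn (0.083 to 0.352), with RLE size factors (0.0505) and with limma-voom (0.0555), and CHN1 (0.0442), lost without Control library 1, OE_CBX7 library 1 or OE_CBX7 library 2 (0.0888 to 0.313) and with library totals (0.0835). EVX2, the homeobox gene at the HOXD13 end, and PRAC1, beside HOXB13, were at 0 counts in all 4 libraries.

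HOX proteins bind DNA together with TALE homeodomain partners. The list taken for them, called TALE partners below, also holds genes that are not such partners, PBXIP1 and TGIF2 among them. Of its 11 tested genes 2 rose, 3 fell and 6 were not called (median log2 fold change 0.18). Over all tested genes 10.5% were called higher and 13.9% lower. PBXIP1, which inhibits PBX proteins, rose from 14.6 ± 0.0537 to 24.9 ± 1.73 CPM (log2 fold change 0.76, edgeR adjusted p = 0.00105). TGIF2, a repressor that acts on retinoid and TGF-beta responses and is not a HOX partner of the PBX kind, went down from 18.4 ± 1.14 CPM in Control to 6.41 ± 0.0692 in OE_CBX7 (log2 fold change -1.52, adjusted p = 9.17e-06). Its relative TGIF1 fell as well (log2 fold change -0.37, adjusted p = 0.0164). The fifth called gene, PBX2, had a log2 fold change of -0.38 (adjusted p = 0.0319), lost with library totals in place of TMM (0.0697). Without OE_CBX7 library 1 the calls of TGIF1 (0.162) and PBX2 (0.140) were lost, without OE_CBX7 library 2 those of TGIF1 (0.112) and PBX2 (0.241), and without Control library 1 that of PBX2 (0.106).

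Of 23 Trithorax and COMPASS genes, all tested, 1 rose, 2 fell and 20 were not called (median log2 fold change -0.089), and over all tested genes 24.4% were called. The 2 that fell are demethylases of histone H3 lysine 27, which remove the mark that CBX7 binds. KDM6B had 38.7 ± 3.54 CPM in Control and 11.3 ± 0.507 in OE_CBX7 (log2 fold change -1.77, edgeR adjusted p = 2.86e-07) and KDM6A had 53.6 ± 5.72 and 25.8 ± 2.80 (log2 fold change -1.06, adjusted p = 4.06e-05). PSIP1, which tethers the menin and KMT2A complex to chromatin, was called higher by a narrow margin (log2 fold change 0.30, adjusted p = 0.0494). That call was lost without each library in turn (0.067 to 0.440) and with RLE size factors (0.0516). With DESeq2 1 gene of this list was called higher and 7 lower. At a mean count of 50 or more, and with the replicate block, these were 1 and 6. In the main edgeR fit 3 genes were higher and 7 lower at an unadjusted p under 0.05.

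Among 16 tested genes of retinoic acid supply and response, an inducer of anterior HOX genes, 3 rose, 1 fell and 12 were not called (median log2 fold change 0.11), a called share near the 24.4% of all tested genes. RDH10, which makes retinal, had 64.0 ± 3.18 CPM in Control and 114 ± 3.09 in OE_CBX7 and rose (log2 fold change 0.84, edgeR adjusted p = 5.74e-05), as did CYP26B1, which degrades retinoic acid, with 50.1 ± 0.534 and 74.3 ± 1.43 CPM (adjusted p = 0.00145). The receptor RARA fell (log2 fold change -0.70, adjusted p = 0.00909), a call lost without Control library 2 (0.0901) or OE_CBX7 library 2 (0.0976). RXRA rose with a log2 fold change of 0.40 (adjusted p = 0.0188), lost without Control library 1 (0.0609) or OE_CBX7 library 1 (0.184). Of 14 tested genes that shape or induce the clusters otherwise (median log2 fold change 0.044) 2 were called, beside 24.4% of all tested genes: MAZ, a zinc finger factor found at cluster boundaries, rose (log2 fold change 0.62, adjusted p = 0.00147) and WAPL, which releases cohesin from DNA, fell (log2 fold change -0.64, adjusted p = 0.000949). The boundary factor CTCF was among the 12 that were not called.

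Of 26 tested genes described as targets of HOX proteins in epithelial cells or tumours, 3 rose, 10 fell and 13 were not called (median log2 fold change -0.13). Over all tested genes 10.5% were called higher and 13.9% lower. Without OE_CBX7 library 1 the counts were 1 higher and 9 lower, with the calls of NCAM1 (adjusted p = 0.0624) and BMP4 (0.244) lost, and BMP4 was also lost without each other library (0.0575 to 0.191). On the falling side the call of IGFBP1 was lost without each library in turn, with log2 fold changes of -0.384 to -0.345. The 4 with the smallest p all fell: CDKN1A, MYC, FGF2 and EGFR. Their log2 fold changes were -0.88, -0.63, -0.80 and -0.61, with edgeR adjusted p of 6.12e-05, 0.000257, 0.000269 and 0.000334. These genes also answer to many other factors, among them p53 and growth factor signalling. The part of the HOX genes in these changes was not tested.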

How the data were processed

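Total RNA of 4 A549 libraries was sequenced. The authors deposited 1 table of estimated counts (expected counts) per gene. The tools listed in the submitters' processing notes, without their roles, are DESeq2, StringTie 2.2.1 and HISAT2 2.2.1, and the build is hg38. For annotation and strandedness the sources used here give nothing. All values were whole numbers, so rounding changed none, and columns were matched by title.

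Counts of all genes were fitted with edgeR 4.0.16 in R 4.3.3 (filterByExpr, TMM, robust quasi-likelihood test, group as the only term), with Benjamini-Hochberg adjustment over 17271 tested genes. Every adjusted p is from this fit unless another setting is named. SEs come from the fold change and its F statistic. Alternatives were DESeq2 1.42.0, limma-voom (limma 3.58.1), other scalings and filters, a replicate block and leaving out each library. The count tests were tested on simulated data. Dispersion, the spread between libraries, was set there below the common value of 0.0378 fitted to these data. Changes were set only in genes above a minimum count. That run does not show how the tests perform at the spread of these libraries or on HOX genes of low count. Intervals and floors cover counting error or library spread in these libraries only. Counts of same-group libraries differed beyond Poisson error (chi-square over its degrees of freedom was 58.5 in Control and 45.5 in OE_CBX7). Each library was treated as 1 sample, but this spread does not show that the libraries came from separate cultures.

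The members and lists were chosen with earlier results of these data known. Named genes are the called HOX genes, the 12 HOX genes with the highest mean CPM, up to 4 called members with the smallest p of each other list and up to 6 non-coding genes by count. All further HOX genes, PBX2, CHN1, LNPK, NCAM1, BMP4, IGFBP1, HOTAIR, HOTTIP, EVX2, PRAC1, CTCF and single markers were chosen after their values were seen. Gene positions and promoters are RefSeq's (GRCh38.p14), and exon lengths and overlaps GENCODE 29's. Values of 1 HOX gene and 1 TALE gene are not reported here, but both are in the counts, sums and medians.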

Additional observations from a re-analysis of the deposited data

How the results depend on the processing

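The called HOX genes were HOXB5, HOXB9, HOXB13 and HOXC6 under all 7 alternatives that keep the 4 libraries: RLE size factors, library totals, no low-count filter, a mean count of 50 or more, DESeq2, limma-voom and the replicate block. HOXB9 was also called lower without each library in turn. With 1 library left out, an arm holds 1 library that is assumed to vary like the other arm. HOX genes called higher then numbered 0 to 3 and called lower 1 to 2; the 0 was without OE_CBX7 library 2, where edgeR gave 2 higher at an unadjusted p under 0.05. Over all genes 1021 to 1790 were then called higher and 1689 to 2134 lower, of TALE partners 2 to 5, of Trithorax genes 2 to 6, of retinoic acid genes 3 to 4 and of non-coding genes 0 to 1. The small log2 fold changes of HOXA3, HOXB7 and HOXB8 changed sign then, with ranges of -0.052 to 0.13, -0.088 to 0.15 and -0.075 to 0.13. Other HOX genes that were not called in the main fit changed sign as well, among them HOXA2, HOXA10 and HOXC8. Trithorax genes called numbered 7 at a mean count of 50 or more and 8 with DESeq2. Non-coding genes called numbered 0 of 5 at a mean count of 50 or more (2 at an unadjusted p under 0.05) and 2 with limma-voom. The cause of these shifts was not tested. The replicate numbers were not shown to pair the libraries (Pearson's r of same-numbered deviations 0.028 across 17271 genes). With the replicate block 3 HOX genes were called higher and 1 lower, 7 Trithorax genes were called, and 0 of 10 non-coding genes (4 at an unadjusted p under 0.05). The median log2 fold change of tested HOX genes ran from -0.062 to 0.088 over all alternatives. For the tested low HOX genes SEs of 0.508 to 1.75 would hide a 2-fold change. The parts of depth and of spread between libraries in these SEs were not tested.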
